A study of Mus musculus with 10 samples.

Results

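The breakdown of the branched-chain amino acids leucine, isoleucine and valine was followed through 10 genes that encode its first steps, the switch that controls them and the next steps of the leucine branch. These were Bcat1, Bcat2, Bckdha, Bckdhb, Dbt, Bckdk, Ppm1k, Ivd, Mccc1 and Mccc2. They were taken from the count table by gene symbol, and all 10 were found among its 54347 gene records and passed the filter on low counts. The samples were interscapular brown adipose tissue (iBAT) of 5 ΔGm15551 mice and 5 wild type litter mates of 12 weeks. ΔGm15551 mice carry a CRISPR/Cas9 deletion of exon 1 of the long noncoding RNA gene Gm15551. The deletion was made on the C57BL/6N background, is constitutive, and the labels give the strain of both groups as C57BL/6N-{delta}Gm15551. The methods name a chow diet for the ΔGm15551 mice, and all mice were kept alone at 4 °C for 24 h before dissection, so every level below is a level in the cold and no response to cold can be read from these samples.

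In brown adipocytes, branched-chain amino acids enter the mitochondria and lose their amino group to a branched-chain aminotransferase. The resulting ketoacids are then committed to oxidation by the branched-chain ketoacid dehydrogenase, a large complex that a kinase shuts off by phosphorylation and a phosphatase switches on again. After that step each amino acid has its own branch, and brown fat is known to oxidise branched-chain amino acids as fuel when animals are cold.

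Between genotypes, none of the 10 genes changed at an adjusted p under 0.05 in edgeR's quasi-likelihood test (smallest adjusted p = 0.999827 with Benjamini-Hochberg adjustment), against a background of 0% of the 13733 genes tested. At an unadjusted p under 0.05 the count was also 0 of 10, against 1.6% of all genes, made up of 0.961% higher and 0.641% lower in ΔGm15551. DESeq2 and limma-voom called 0 of 10 at their adjusted p, and at an unadjusted p DESeq2 counted 1, Bckdha, against 1.67% of all genes, and limma-voom 0, against 1.81%. No gene had 2 genotype ranges that did not overlap, against 0.32% of all genes. What the genes did show was a steep order of levels within the pathway and, for 4 of them, a shared variation from mouse to mouse whose extremes came from both genotypes. Of these 4 genes, Ivd was set against cell type markers, with a median r of -0.88 for endothelial, -0.69 for skeletal muscle and 0.31 for brown adipocyte markers. Of the 5 pairs of genes that passed over all 10 mice, none passed without the 2 mice farthest from the median. None passed after regression on the endothelial markers either. The r of Ivd with Mccc2 was 0.89 and 0.87 in these 2 settings, against 0.96 in the main result.

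Each mouse was sequenced to between 9680976 and 15771170 counts. Gm15551 had no count in any ΔGm15551 mouse and 1, 2, 6, 7 and 0 counts in wild type replicates 2, 3, 5, 6 and 7, so the check of the deletion rests on few reads. Ucp1, which encodes the heat-producing uncoupling protein of brown fat, stood at 5733 to 10964 CPM (counts scaled to the size of each library), and all 10 markers of brown adipocytes were detected in every mouse. The skeletal muscle list made up 0.000137% to 0.197% of a ΔGm15551 library and 0.000152% to 0.296% of a wild type library, and 2 libraries, ΔGm15551 replicate 4 and wild type replicate 7, were over 0.1%. In whole tissue, fewer cells of a type and less RNA per cell cannot be told apart.

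The pathway genes spanned more than 3 orders of magnitude in level. Levels between genes were compared as CPM per kilobase of merged exons, as means ± SD over the 10 mice. Bckdha, the alpha subunit of the E1 component of the dehydrogenase, stood first at 221 ± 32.9, above 98.6% of the genes tested. Dbt, the E2 core of the complex that carries the acyl group, followed at 85.5 ± 20.3, and Bckdhb, the beta subunit of E1, at 81.8 ± 5.23. Ivd, the isovaleryl-CoA dehydrogenase of the leucine branch, stood at 34.8 ± 10.9 and Mccc2, the beta subunit of methylcrotonyl-CoA carboxylase, at 32.9 ± 8.29. Bcat2, the mitochondrial aminotransferase, had 29.6 ± 7.69. Lower were Bckdk, the kinase that inhibits the complex, at 19.4 ± 1.82, and Mccc1, the biotin-carrying alpha subunit of the carboxylase, at 12.2 ± 2.94. Ppm1k, the phosphatase that reactivates the complex, had 4.83 ± 1.79, and Bcat1, the cytosolic aminotransferase, 0.0741 ± 0.0307. Among these 10 genes, the 3 subunits of the dehydrogenase thus had the highest levels, and both its regulators stood below the subunits.

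Of the 9 neighbour pairs in this order, 6 kept their order in 10 of 10 mice and differed in an exact sign-flip permutation test (adjusted p = 0.00293, which rests on the smallest raw p that 10 mice allow). Dbt and Bckdhb (adjusted p = 0.824, exact permutation test, 7 of 10 mice in this order), Ivd and Mccc2 (0.178) and Mccc2 and Bcat2 (0.178) did not differ beyond their spread. The pairs were neighbours in an order taken from these same values. A gene length shifts all mice alike, so these p-values do not cover the choice of length. The order in the middle depended on the gene length used. With the longest coding transcript in place of merged exons, Mccc1 moved up to 54.5 CPM per kilobase, between Bcat2 at 55.5 and Ivd at 52.2, because its merged exons span 10952 bp and its longest coding transcript 2455 bp. Bckdk and Mccc1, which are among the 6 pairs above, thereby stood in the reverse order, with Bckdk at 21.1. With this length Ivd was above Mccc2 in 10 of 10 mice (adjusted p = 0.00352, exact permutation test). Bckdhb at 99.96 then stood above Dbt at 86.8 (adjusted p = 0.128, exact permutation test). Bckdha stayed first and Ppm1k and Bcat1 stayed the 2 lowest under either length.

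**Figure D1:**
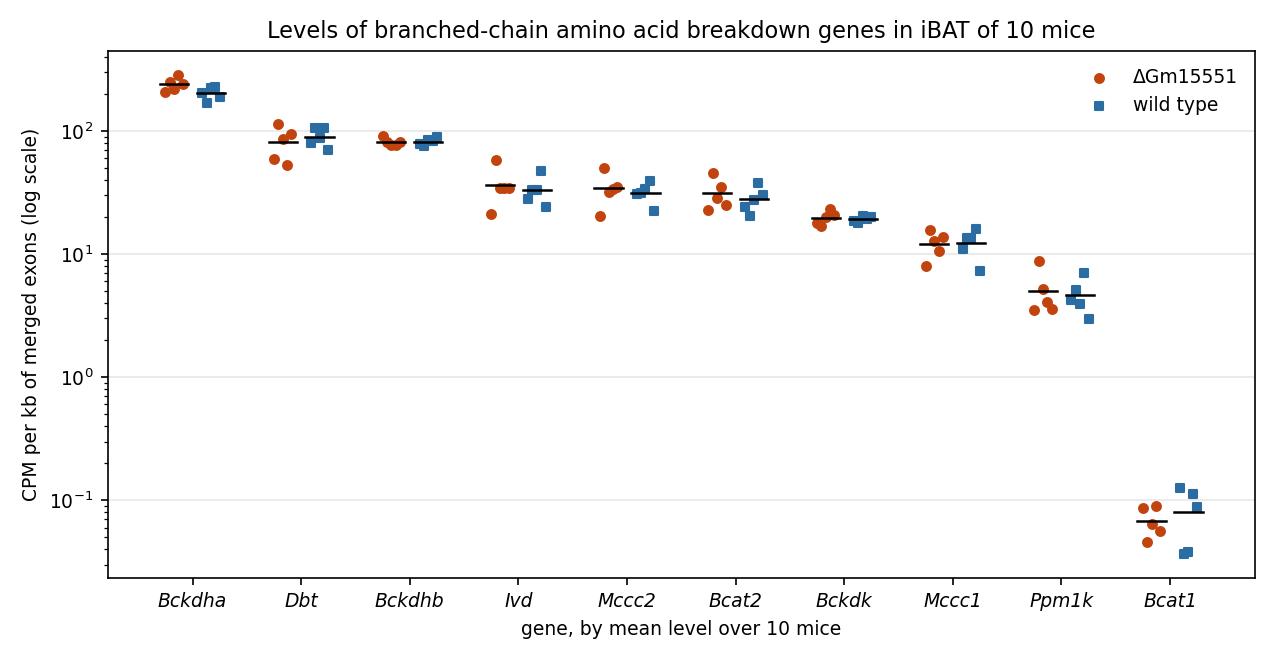
Level of each gene in CPM per kilobase of merged exons on a log scale, with 1 point per mouse (circles ΔGm15551, squares wild type) and a bar at each group mean. The genes are ordered by their mean, from Bckdha at 221 down to Bcat1 at 0.0741, and the points of both genotypes overlap for every gene.

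Of the 2 aminotransferase genes, the mitochondrial one had by far the higher mRNA level. In the order of replicates 1, 2, 4, 5 and 7 of ΔGm15551, Bcat2 had 89.3, 177.5, 110.8, 135.6 and 97.4 CPM. In the order of replicates 2, 3, 5, 6 and 7 of wild type, which is kept below, it had 93.5, 79.7, 106.4, 146.6 and 117.9 CPM. ΔGm15551 replicate 2 was above all other mice and the groups otherwise overlapped, with a log2 fold change (log2FC, ΔGm15551 minus wild type) of 0.17 ± 0.20 (SE, n = 5 each). Bcat1 had 11, 6, 8, 11 and 7 counts in ΔGm15551 and 13, 4, 5, 16 and 8 in wild type, a level that leaves its log2FC of -0.22 with a 95% confidence interval from -1.07 to 0.63. Per kilobase of merged exons, Bcat2 exceeded Bcat1 between 193-fold and 998-fold in single mice, with a median of 416-fold, and with coding transcript lengths the median was 654-fold. The Bcat2 gene (chromosome 7, 45570153 to 45589711, GRCm38) shares 15.2% of its 31-base words with other genes, mostly with the antisense gene 0610005C13Rik, which held 2 to 12 counts per mouse.

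In the dehydrogenase complex, the subunits differed in how much they varied. Bckdhb was among the steadiest genes in the tissue, at 163.7, 146.9, 138.1, 140.2 and 147.2 CPM in ΔGm15551 and 141.0, 135.5, 152.5, 150.7 and 160.7 CPM in wild type. Its highest mouse was 1.21 times its lowest, only 1.82% of the genes tested had a smaller SD over mice, and its log2FC was -0.01 with an interval from -0.22 to 0.20. Dbt, the core to which E1 docks, ranged more widely, with 197, 382, 290, 178 and 318 CPM in ΔGm15551 and 268, 353, 292, 352 and 235 CPM in wild type. The ΔGm15551 mice held both the lowest values and the highest, and the log2FC was -0.14 ± 0.20.

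Bckdha had the smallest unadjusted p of the 10 genes. Its level was 392, 472, 415, 544 and 459 CPM in ΔGm15551 and 388, 321, 421, 429 and 359 CPM in wild type. Replicates 2, 5 and 7 of ΔGm15551 were above every wild type mouse, while replicates 1 and 4 fell inside the wild type range. The means were 456 ± 58.9 and 384 ± 44.8 CPM (SD, n = 5), a log2FC of 0.25 with an interval from -0.02 to 0.52, which did not pass edgeR's test (adjusted p = 0.999827). Over the 21 alternative settings the log2FC stayed between 0.18 and 0.37, and the smallest adjusted p was 0.835. Of the 31-base words of Bckdha (chromosome 7, 25629946 to 25658981, GRCm38), 54.6% also occur in another gene, mostly B3gnt8 on the other strand. B3gnt8 itself held 32 to 77 counts per mouse against 3508 to 7113 for Bckdha, and whether the counting used strand is not given in the sources used here.

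The ratio of both E1 subunits, which form 1 heterotetramer, does not depend on how libraries were scaled, and all ratios below were taken after 0.5 was added to each count. Bckdha counts were 2.393, 3.214, 3.003, 3.882 and 3.115 times those of Bckdhb in ΔGm15551 and 2.75, 2.37, 2.76, 2.85 and 2.24 times in wild type. The ratio was above all wild type mice in 4 of 5 ΔGm15551 mice, a difference of 0.26 on the log2 scale. This did not pass the exact permutation test (two-sided p = 0.0952, adjusted p = 0.381 over the 4 ratios tested).

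The kinase and the phosphatase behaved unlike each other. Bckdk was steady at 65.7, 62.4, 73.4, 86.1 and 76.4 CPM in ΔGm15551 and 68.2, 66.6, 74.9, 70.8 and 73.4 CPM in wild type, and its SD over mice was larger than that of only 8.92% of genes. Ppm1k had 21.2, 52.5, 31.5, 24.4 and 21.7 CPM in ΔGm15551 and 25.3, 30.6, 23.7, 42.5 and 17.7 CPM in wild type, with ΔGm15551 replicate 2 and wild type replicate 6 standing highest. The highest mouse was 2.96 times the lowest for Ppm1k and 1.38 times for Bckdk. Their log2FC between genotypes were 0.11 ± 0.27 and 0.04 ± 0.11.

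Kinase counts were therefore between 1.19 and 4.14 times phosphatase counts, depending on the mouse. ΔGm15551 replicate 2 had the lowest ratio and wild type replicate 7 the highest. The genotypes differed by -0.05 on the log2 scale (exact permutation p = 0.873, also 0.873 after adjustment), and without ΔGm15551 replicate 2 the difference was 0.22.

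**Figure D2:**
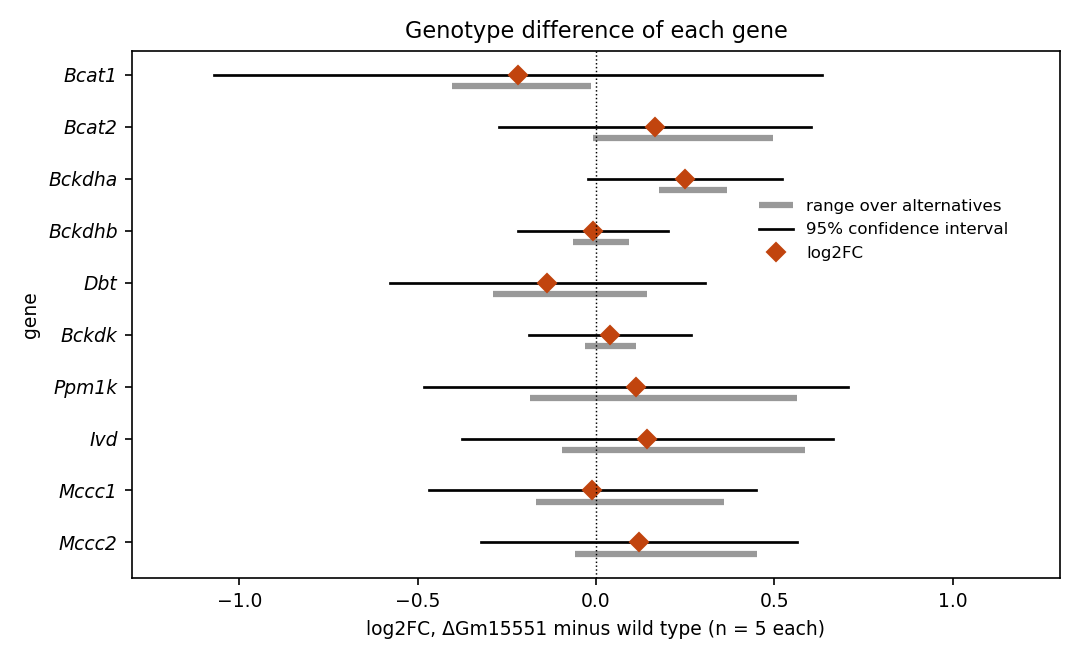
Log2FC of each gene between ΔGm15551 and wild type mice, with its 95% confidence interval as a black line and, under it, the range over 21 alternative settings as a grey bar. Every interval includes 0, from the narrowest, Bckdhb at -0.22 to 0.20, to the widest, Bcat1 at -1.07 to 0.63.

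In the leucine branch, Ivd and both carboxylase genes moved together from mouse to mouse. Ivd had 116, 323, 188, 190 and 188 CPM in ΔGm15551 and 153, 183, 181, 259 and 132 CPM in wild type. Mccc2 had 57.6, 141, 88.7, 95.1 and 97.8 CPM in ΔGm15551 and 86.6, 88.1, 94.6, 109 and 62.7 CPM in wild type. In both genes ΔGm15551 replicate 2 was highest, wild type replicate 6 second, ΔGm15551 replicate 1 lowest and wild type replicate 7 second lowest, so the extremes came from both genotypes.

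Mccc1 had 87.1, 170.3, 140.5, 116.7 and 151.6 CPM in ΔGm15551 and 120.1, 147.4, 149.1, 174.2 and 80.0 CPM in wild type, with the same pairs of mice at the top and at the bottom. The log2FC of Ivd was 0.14 ± 0.24, that of Mccc1 -0.01 ± 0.21 and that of Mccc2 0.12 ± 0.21. Both carboxylase subunits kept a narrow ratio, with 1.21 to 1.67 Mccc1 counts for each Mccc2 count, and this ratio did not differ between genotypes beyond its spread (log2 difference -0.09, exact permutation p = 0.476, adjusted p = 0.783). The difference was -0.032 without ΔGm15551 replicate 2, -0.038 without ΔGm15551 replicate 5 and -0.14 without wild type replicate 7. The ratio of Bcat2 to Bcat1 counts, the last of the 4 tested, did not pass either, with a difference of 0.25 on the log2 scale (exact permutation p = 0.587, adjusted p = 0.783). Without ΔGm15551 replicate 2 the difference was -0.022, without wild type replicate 2 it was 0.0089, and without any other single mouse it lay between 0.21 and 0.46.

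Over the 45 pairs of the 10 genes, Pearson's r of log2 CPM over the 10 mice passed an adjusted permutation p of 0.05 in 5, all positive and all among Ppm1k, Ivd, Mccc1 and Mccc2. Ivd with Mccc2 was the highest, with r = 0.96 and Spearman's rho = 0.95 (raw permutation p = 8e-05 and 0.00011, adjusted p = 0.0036 and 0.00495), and was the only pair that also passed by rho. Without ΔGm15551 replicates 1 and 2, the mice farthest from the median of Ivd, its r was 0.89 over 8 mice and no longer passed (adjusted permutation p = 0.0693). Centring each genotype on its own mean left r at 0.96.

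Mccc1 with Mccc2 had r = 0.89 and rho = 0.84 (raw permutation p = 0.00066 and 0.00362, adjusted p = 0.0117 and 0.0543). Ppm1k with Ivd had r = 0.89 and rho = 0.73 (raw permutation p = 0.00078 and 0.0206, adjusted p = 0.0117 and 0.132). Ivd with Mccc1 had r = 0.86 and rho = 0.75 (raw permutation p = 0.00149 and 0.0171, adjusted p = 0.0168 and 0.129), and Ppm1k with Mccc2 had r = 0.81 and rho = 0.62 (raw permutation p = 0.00511 and 0.0597, adjusted p = 0.046 and 0.207). Without the 2 mice farthest from the median of the first gene of each pair, r was 0.66, 0.62, 0.85 and 0.56 in that order. In that setting none of the 5 pairs passed at an adjusted p, and 1 other pair did, Dbt with Mccc1 (r = 0.89 and raw permutation p = 0.00104 without ΔGm15551 replicates 1 and 5, against r = 0.80 and adjusted p = 0.0511 over all 10 mice). The mice left out were ΔGm15551 replicate 2 and wild type replicate 6 for both relations of Ppm1k. For Mccc1 with Mccc2 they were ΔGm15551 replicate 1 and wild type replicate 7. Leaving out the extremes of a gene narrows its range and tends to lower r, so this setting cannot tell whether single mice carry a relation.

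Other genes that act as a pair did not pass this test. Kinase and phosphatase had r = -0.46 and rho = -0.42 (raw permutation p = 0.187, adjusted p = 0.382), both aminotransferases r = 0.12 and rho = 0.25 (raw permutation p = 0.742, adjusted p = 0.827), and both E1 subunits r = -0.08 and rho = -0.02 (raw permutation p = 0.821, adjusted p = 0.868). Bckdha with Dbt had r = -0.21 and rho = 0.07 (raw permutation p = 0.553, adjusted p = 0.755), and r turned to 0.81 when ΔGm15551 replicate 5 and wild type replicate 3 were left out. The lowest r of all pairs was -0.53, with rho = -0.16, for Bckdhb with Mccc1 (raw permutation p = 0.11, adjusted p = 0.331), and it turned to 0.56 without ΔGm15551 replicate 1 and wild type replicate 7.

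**Figure D3:**
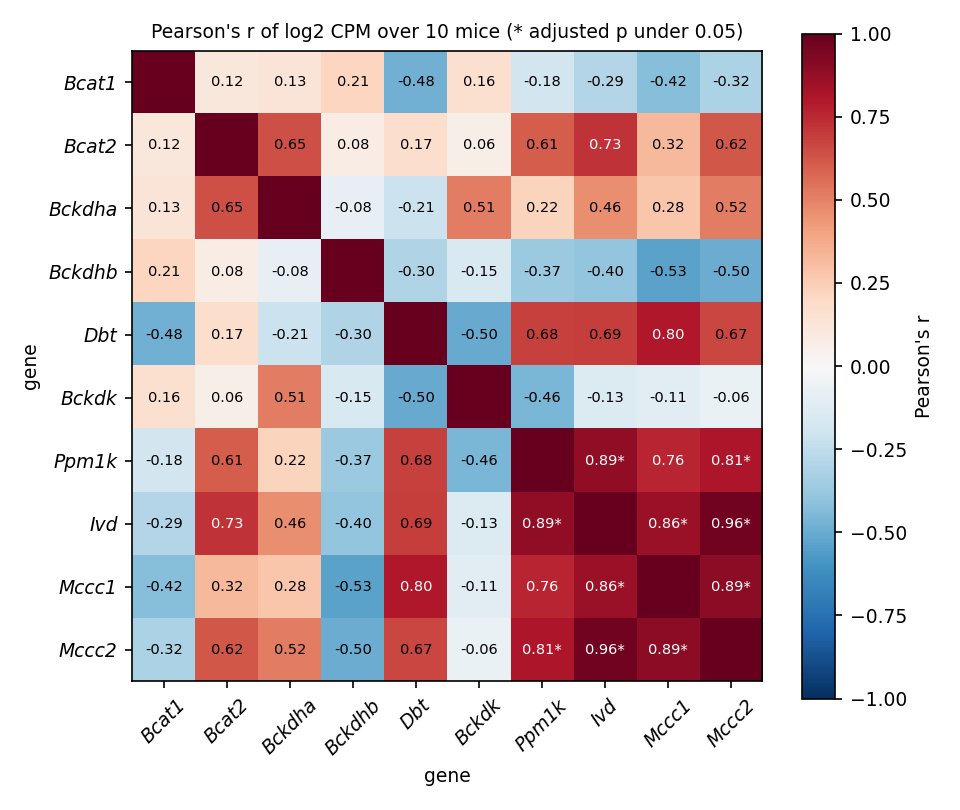
Pearson's r of log2 CPM over 10 mice for every pair of the 10 genes, with a star where the permutation p adjusted over 45 pairs was under 0.05. The 5 starred pairs, with r between 0.81 and 0.96, lie in the corner of Ppm1k, Ivd, Mccc1 and Mccc2.

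Markers of endothelial cells moved the opposite way to Ivd. All 3 markers were detected in every mouse, Pecam1 at 141 to 275, Cdh5 at 218 to 354 and Kdr at 263 to 528 CPM, and their median r with Ivd over the 10 mice was -0.88. The mean log2 CPM of the list ranged from 7.75 to 8.52 in ΔGm15551 and from 7.65 to 8.41 in wild type. It was highest in ΔGm15551 replicate 1 and wild type replicate 7, where Ivd was lowest, and lowest in wild type replicate 6 and ΔGm15551 replicate 2, where Ivd was highest. After regression of every gene on this list, an alternative chosen after seeing the data, 0 of the 45 pairs passed at an adjusted p, with r = 0.87 for Ivd with Mccc2 and 0.29 for Ivd with Mccc1. After regression on the skeletal muscle list, whose 10 genes had a median r of -0.69 with Ivd, 1 pair passed, Ivd with Mccc2. Brown adipocyte markers had a median r of 0.31, and their mean log2 CPM stayed between 9.93 and 10.23. Median r with Ivd was also below 0 for the lists of Schwann cells and nerve (-0.66), fibroblasts (-0.53), red blood cells (-0.45) and macrophages and lymphocytes (-0.27), and 0.27 for Lep, the only white adipocyte marker tested. The part of these cell types in the covariation was not tested.

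**Figure D4:**
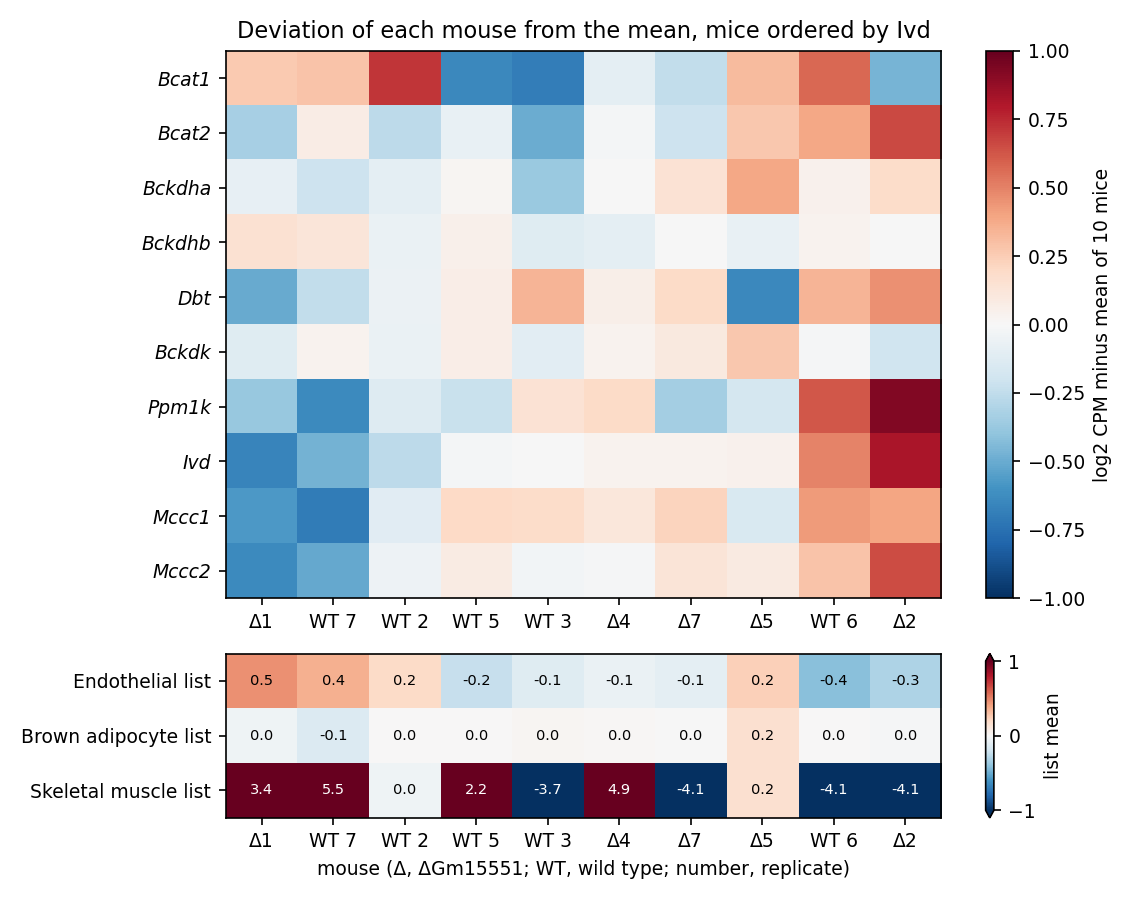
Upper panel, log2 CPM of each gene in each mouse minus its mean over 10 mice, with mice ordered by Ivd from lowest to highest (Δ, ΔGm15551; WT, wild type; the number is the replicate), and lower panel, the mean log2 CPM of 3 marker lists minus its mean over mice, with colours saturating at -1 and 1. Ppm1k, Ivd, Mccc1 and Mccc2 go from blue at ΔGm15551 replicate 1 and wild type replicate 7 to red at wild type replicate 6 and ΔGm15551 replicate 2, while the endothelial list goes the other way and Bckdhb and Bckdk stay near 0.

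**Figure D5:**
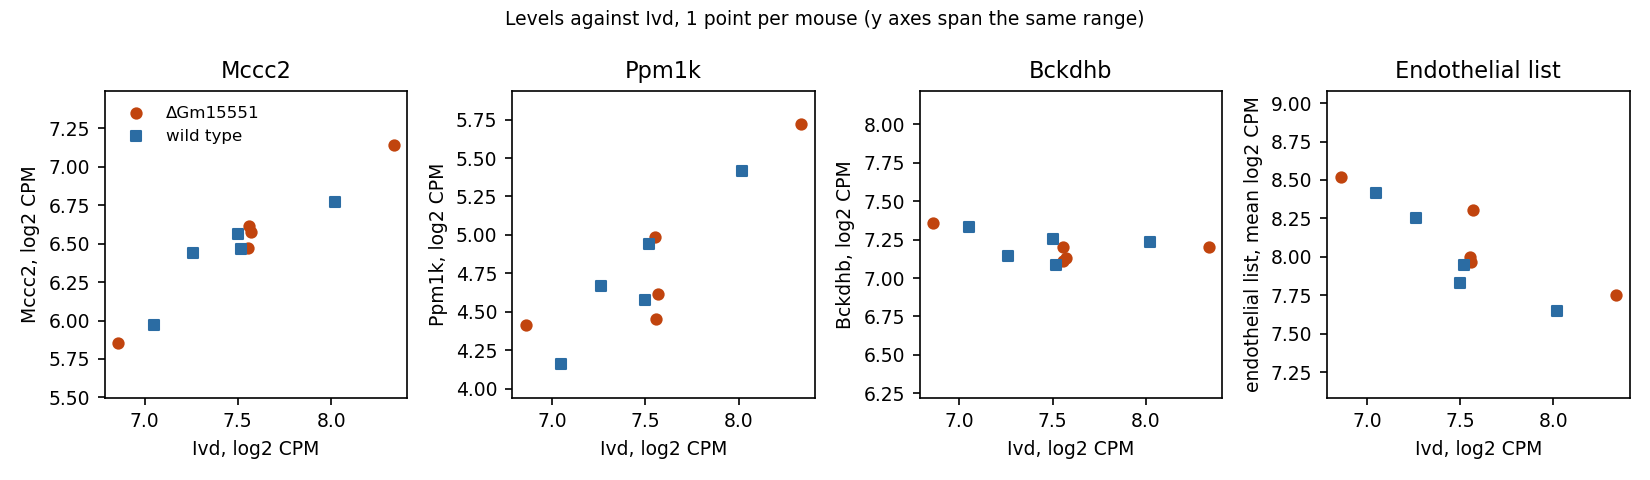
Log2 CPM of Mccc2, Ppm1k and Bckdhb and mean log2 CPM of the 3 endothelial markers against log2 CPM of Ivd, with 1 point per mouse (circles ΔGm15551, squares wild type) and vertical axes of equal span. Mccc2 rises with Ivd (r = 0.96) in both genotypes, Ppm1k rises with more scatter (r = 0.89), Bckdhb is nearly flat (r = -0.40) and the endothelial list falls.

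Because all 5 pairs that passed over the 10 mice lay among Ppm1k, Ivd, Mccc1 and Mccc2, the bases before their transcription starts were compared. Ppm1k with Mccc1 had not passed (r = 0.76, adjusted permutation p = 0.0762). RefSeq promoter entries on GRCm38.p6 were found for 9 of the 10 genes, as 12 entries, since Bcat1, Bcat2 and Bckdhb have 2 starts each. None was found for Dbt, which had r = 0.80 with Mccc1 (adjusted permutation p = 0.0511). The sequences below run from 5′ to 3′ up to the base before the transcript, the capitals mark the CCAAT box in either orientation (CCAAT, or ATTGG on the other strand), and the motifs were chosen after the sequences were seen.
Ivd (chr2:118861744-118861953, plus strand): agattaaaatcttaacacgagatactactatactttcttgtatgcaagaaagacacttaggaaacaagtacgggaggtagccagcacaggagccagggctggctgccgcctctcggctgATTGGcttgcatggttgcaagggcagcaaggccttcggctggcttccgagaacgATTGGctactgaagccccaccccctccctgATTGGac
Ppm1k (chr6:57535488-57535737, minus strand): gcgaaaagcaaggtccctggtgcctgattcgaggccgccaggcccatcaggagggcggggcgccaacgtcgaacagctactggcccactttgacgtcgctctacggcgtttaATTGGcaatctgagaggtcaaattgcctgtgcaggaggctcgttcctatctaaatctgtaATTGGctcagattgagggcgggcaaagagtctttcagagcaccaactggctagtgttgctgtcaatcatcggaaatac
Mccc1 (chr3:36000679-36000928, minus strand): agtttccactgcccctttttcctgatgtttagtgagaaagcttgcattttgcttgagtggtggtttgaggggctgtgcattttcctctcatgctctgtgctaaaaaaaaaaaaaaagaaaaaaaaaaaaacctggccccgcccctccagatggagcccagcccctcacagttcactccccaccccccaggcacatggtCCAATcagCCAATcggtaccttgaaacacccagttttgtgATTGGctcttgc
Mccc2 (chr13:100015640-100015889, minus strand): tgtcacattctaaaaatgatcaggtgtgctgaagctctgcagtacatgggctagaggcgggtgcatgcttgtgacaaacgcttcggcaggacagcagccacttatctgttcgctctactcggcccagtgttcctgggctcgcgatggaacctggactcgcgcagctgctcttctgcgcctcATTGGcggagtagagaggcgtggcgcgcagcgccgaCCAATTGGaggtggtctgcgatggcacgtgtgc
The 250 bases before the start held 3 CCAAT boxes in Mccc1, 3 in Mccc2, of which 2 share bases, 2 in Ppm1k and 4 in Ivd. For Ivd, 210 bases are printed, because the gene in GENCODE M21 begins before the RefSeq start, and these hold 3 of the 4. Of all 32851 promoter entries, 33.8% held at least 1 box, 10.1% at least 2 and 2.79% at least 3.

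Outside these 4 genes, Bckdhb had 2 boxes at 1 of its 2 starts and 0 at the other. Whether the boxes bear on the shared variation was not tested. Bckdk had 1, Bcat1 had 1 and 0 at its 2 starts, and Bckdha and Bcat2 had none in this window. The GC box (GGGCGG), held by 32.7% of all entries, occurred in Mccc1, Ppm1k and Bckdhb, and the TATA box (TATAAA), held by 12.4%, in Bcat1 and Bckdk. The direct repeat recognised by PPAR receptors, held by 0.0335%, had no match in the 12 entries. Both strands were searched, no motif contains another, and a match describes letters in a window and not a bound site.

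The 29 other genes of the pathway, from transporters to the last steps of each branch, were read from the same fit. None of the 29 passed an adjusted or an unadjusted p of 0.05 in edgeR, DESeq2 or limma-voom, beside 0 of all genes at an adjusted p and 1.6%, 1.67% and 1.81% at an unadjusted p. Their median log2FC was 0.03, with 19 of 29 above 0, beside 0.08 with 6 of 10 for the genes above and 0.00 for all genes tested. Without ΔGm15551 replicate 2 the median of the 10 genes was -0.08, with 2 of 10 above 0, and that of the 29 was -0.02. Without ΔGm15551 replicate 1 the medians were 0.16, with 7 of 10 above 0, and 0.12, with 27 of 29 above 0.

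The shared subunit Dld, the E3 component that also serves other dehydrogenases, averaged 778 ± 234 CPM in the ΔGm15551 mice and 839 ± 207 CPM in the wild type mice (SD, n = 5). Slc25a44, the mitochondrial carrier of branched-chain amino acids, had 122 ± 37.8 and 116 ± 21.8 CPM. Its lowest and highest mice were also ΔGm15551 replicates 1 and 2, at 70.5 and 173 CPM, and its r with Ivd was 0.92. The 2 smallest p belonged to Hlcs, which attaches biotin to carboxylases (log2FC 0.29 ± 0.17), and Hsd17b10 of the isoleucine branch (0.25 ± 0.19), each with an adjusted p of 0.999827 in edgeR.

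By level per kilobase, leading genes of role groups were Slc3a2 among transporters (39.1), Dld (219) and Acat1 in the isoleucine branch (144). Others were Aldh6a1 in the valine branch (51.7), Mcee in the route from propionyl-CoA to succinyl-CoA (177), Btd in biotin recycling (14.98) and Mlxipl among regulators (60.3). These values use merged exons, and with the longest coding transcript the leaders were Echs1 (296) before Acat1 (159) in the isoleucine branch and Hibadh (160.1) before Hibch (109) and Aldh6a1 (87.9) in the valine branch. Dld stood at 219 CPM per kilobase of merged exons beside 221 for Bckdha, and at 318 beside 221 with coding transcripts. Slc25a44 stood at 33.2 under either length, beside 29.6 for Bcat2 with merged exons and 55.5 with coding transcripts.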

How the data were processed

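RNA was measured by polyA RNA-seq of iBAT (NEBNext Ultra II RNA kit, paired-end reads). The authors trimmed reads with cutadapt and estimated transcript abundance with salmon against GENCODE M22 on GRCm38, and the submitters' processing notes also name bcl2fastq and DESeq2, with no versions. The deposited values are estimated counts per gene, already rounded to whole numbers when deposited. Salmon divides reads between overlapping genes by estimation, so genes that share sequence are less certain.

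Samples were grouped by the genotype label. Counts were scaled by TMM and tested with edgeR 4.0.16 (quasi-likelihood, robust, genotype only, R 4.3.3) over all 10 mice, with filterByExpr (minimum count 10) and Gm15551 kept, giving 13733 genes of the 30984 with a count, and Benjamini-Hochberg adjustment over all of them. DESeq2 1.42.0 and limma 3.58.1 served as alternatives. CPM are TMM-scaled, and log2 CPM used a prior count of 2. Ratios and neighbours in level were tested by exact permutation, correlations with 100000 resamples, in scipy 1.17.1. Gene lengths and overlaps came from GENCODE M21, in which 98.1% of gene identifiers were found, and promoters from RefSeq. On simulated counts with changes in 100 genes per size, 84% of genes changed by 1 on the log2 scale and 99% of those changed by 2 were called. The changed genes were drawn from genes with mean counts above that of Bcat1. Changes smaller than 1, such as the 0.25 of Bckdha, were not simulated.

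The labels call the mice litter mates without saying which shared a litter or preparation, so p-values measure the spread between these mice. No pair of libraries of a group agreed within sampling noise (smallest chi-square per degree of freedom 12.45). The genes and gene lists were chosen with earlier results of these data known. The genes named in the report outside the 10 were to be the target, Dld, Slc25a44, the highest gene per kilobase in each role group, the 3 smallest p, Ucp1 and markers of cell types, and 1 gene that this rule names is not reported here. Genes in the closing section that follow Ivd, the valine and isoleucine genes given by coding transcript length, and genes that share sequence with the 10, were named after their values were seen.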

Additional observations from a re-analysis of the deposited data

Results flagged for a closer look

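In the ratio of Bcat2 to Bcat1 counts, taken after 0.5 was added to each count, ΔGm15551 replicate 2 stood apart from the other mice of its group. Its ratio was 385, while the other 4 ΔGm15551 mice had 106, 154, 175 and 176. It rests on 6 counts of Bcat1, and the same mouse had the highest Bcat2 level of all 10. Dixon's test was applied to 28 groups of 5 values, in which chance gives 1.4 such cases, and this was the only 1 found. No explanation was tested.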

How the results depend on the processing

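No member of the pathway passed an adjusted p of 0.05 under any of the 21 alternative settings of the genotype fit, and the smallest adjusted p was 0.835. Under these settings Bcat1 and Bckdha kept their direction. At an unadjusted p under 0.05, edgeR counted 1 member without ΔGm15551 replicate 1, against 3.04% of all genes, and 1 with the endothelial score as a covariate, against 4.19%. In the 6 mice with shared replicate numbers it counted 1 with a replicate block (2.88% of all genes) and 1 without (4.02%). These were higher in ΔGm15551, and the other edgeR settings counted no member. Leaving out 1 mouse at a time gave ranges of log2FC of -0.41 to -0.014 for Bcat1, -0.0090 to 0.30 for Bcat2, 0.18 to 0.30 for Bckdha, -0.050 to 0.022 for Bckdhb, -0.29 to -0.019 for Dbt, -0.030 to 0.090 for Bckdk, -0.18 to 0.31 for Ppm1k, -0.095 to 0.30 for Ivd, -0.15 to 0.11 for Mccc1 and -0.060 to 0.26 for Mccc2, and log2 ratios of -0.22 to 0.22 for Bckdk over Ppm1k, -0.022 to 0.46 for Bcat2 over Bcat1, 0.17 to 0.35 for Bckdha over Bckdhb and -0.14 to -0.032 for Mccc1 over Mccc2. The low ends for Bcat2, Dbt, Ppm1k, Ivd and Mccc2 were all reached without ΔGm15551 replicate 2. Without the libraries over 0.1% muscle counts, the values were 0.14 for the log2 ratio of Bckdk to Ppm1k, -0.19 for that of Mccc1 to Mccc2, 0.045 for Bckdhb, -0.027 for Ppm1k and 0.093 for the r of Bckdha with Bckdhb. Bckdhb had 0.092 when wild type replicates 5, 6 and 7, which carry the higher mouse numbers, were left out, Bcat2 had 0.50 and Bckdha 0.37. No ΔGm15551 mouse carries such a number, so the number series is partly confounded with genotype. Mccc1 had 0.0079 by limma-voom, 0.013 with the muscle score and 0.11 with the endothelial score as a covariate, the last chosen after seeing the data.

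Replicate numbers 2, 5 and 7 occur in both groups, but their deviations correlated at -0.07, 0.05 and -0.39, so the numbers were not taken to pair mice. With a replicate block in these 6 mice, Dbt had 0.084 and Mccc1 0.36, and without the block in the same 6 mice 0.14 and 0.33. In these fits Ivd had 0.55 and 0.59, Ppm1k 0.47 and 0.56, Mccc2 0.45 and 0.45 and Bcat2 0.33 and 0.37, the medians over the 10 genes were 0.33 in both, with 8 of 10 above 0, and those over the other 29 genes 0.29 and 0.28, with 27 above 0. There were 0 members called at an adjusted p in both fits. The number of covarying pairs, 5 in the report, was 1 on residuals of the muscle score (Ivd with Mccc2), 0 on residuals of the endothelial score and 1 without the 2 mice farthest from the median, and this last was Dbt with Mccc1, none of the 5. Without those 2 mice r was -0.30 for Bcat1 with Bcat2, 0.81 for Bckdha with Dbt and 0.56 for Bckdhb with Mccc1. The cause of these changes was not tested. With 4 to 16 counts per mouse, depth limits Bcat1.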

Other observations

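Genes outside the 10 also followed Ivd over the mice. Of all 13732 other genes tested, 658 (4.79%) had r above 0.8 with Ivd, beside 11 of the 29 other genes of branched-chain amino acid breakdown. They include Slc25a44 (0.92), Echs1 (0.91), Aldh6a1 and Hibadh of the valine branch (both 0.89), the leucine hydratase Auh (0.89), Pccb (0.86) and the regulator Klf15 (0.85), named after their values were seen. By group, 3 of 4 valine branch genes, 2 of 4 isoleucine branch genes, 2 of 6 genes from propionyl-CoA to succinyl-CoA and 0 of 2 biotin genes were above 0.8. These values share libraries and describe 10 mice.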
